A study of Mus musculus with 9 samples.

Results

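The BCL2 family genes described here are 10 rows of the gene table, chosen by Ensembl identifier out of 31685 genes, and all 10 were among the 13056 genes with enough signal to be tested. They were the effectors Bax and Bak1, the BH3-only genes Bbc3, Pmaip1, Bid, Bcl2l11 and Bmf, and the anti-apoptotic genes Mcl1, Bcl2l1 and Bcl2. Jejunal RNA was sequenced from 9 wild-type C57BL/6J mice on day 3, and by the study's methods the mice were male and aged 6 to 8 weeks. The control group of 3 mice had no treatment, the TAI group of 3 mice had received 12 Gy of X-rays to the abdomen (total abdominal irradiation) and, by the study's methods, PBS, and the TAI/IVIg group of 3 mice had received the same 12 Gy and then 500 mg/kg of intravenous immunoglobulin, a pooled antibody preparation, by injection within 1 h, with the dose repeated every 3 days. The labels put all mice in 1 batch and give no vehicle injection for the control group, so that irradiation and PBS cannot be told apart in the TAI group. Levels are FPKM, a read count scaled by exonic length and by library size. Levels of different genes can be set side by side on it only roughly. The length is that of all annotated exons of a gene, whichever transcripts were present. Differences between mice also depend on the scaling of the libraries, as given beside the results.

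BCL2 family proteins decide whether the outer mitochondrial membrane is opened. BAX and BAK form the pores, the anti-apoptotic members MCL1, BCL-xL (from Bcl2l1) and BCL2 hold them in check, and BH3-only proteins such as PUMA (from Bbc3) and NOXA (from Pmaip1) bind the anti-apoptotic members or act on the effectors. In the small intestine, ionising radiation is known to raise several BH3-only genes through p53, and crypt cells are the classical site of this response. Protein amounts and cell death itself were not part of these data.

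The tissue label was jejunal epithelium, and the epithelial markers were high in all mice, with Epcam between 870 and 1748 FPKM, but other cells were present. The depth was even, with 16284529 to 18244735 reads recovered per library, while the number of genes at 1 FPKM or more ran from 10386 in TAI/IVIg mouse 3 to 13394 in control mouse 3. Of the marker lists that of B cells differed most among mice, with summed levels of 5 markers of 3.86 to 399 FPKM in control, 2.56 to 72.4 FPKM in TAI and 1.70 to 76.6 FPKM in TAI/IVIg mice, highest in control mouse 3, TAI mouse 3 and TAI/IVIg mouse 2. The summed level of 6 stroma and muscle markers was 358 to 451 FPKM in control, 409 to 557 FPKM in TAI and 91.1 to 399 FPKM in TAI/IVIg mice, lowest in TAI/IVIg mouse 3. Cycling cell markers were lower in every irradiated mouse, with summed levels of 39.4 to 87.8 FPKM in control, 19.3 to 24.5 FPKM in TAI and 15.9 to 24.4 FPKM in TAI/IVIg mice. In tissue of this kind fewer cells of a type and less RNA per cell cannot be told apart.

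On day 3 after 12 Gy, Pmaip1 and Bcl2l1 stood clearly above control in irradiated jejunum, with or without IVIg. Mcl1 was above all control mice in both irradiated groups but passed the test in TAI/IVIg mice only, a call kept in 14 of 20 alternatives. Against control, 2 of the 10 members passed the test in TAI mice and both were higher, while 8.81% of all genes tested were called higher and 26.1% lower, 34.9% in all. In TAI/IVIg mice 3 of the 10 passed against control and all 3 were higher, while 9.06% of all genes tested were called higher and 37.4% lower, 46.4% in all. No member was called between TAI/IVIg and TAI mice, where 0.0% of all genes tested were called. Each gene was tested with limma on log2(FPKM + 1), with Benjamini-Hochberg adjustment across all of these genes, and was called when its adjusted p was below 0.05. At an unadjusted p below 0.05, 6 of the 10 members differed from control in TAI mice (46.2% of all genes tested) and 4 in TAI/IVIg mice (54.6%). The values of the groups did not overlap for 5 of the 10 members in TAI against control (53% of all genes tested), 4 in TAI/IVIg against control (55.8%) and 2 in TAI/IVIg against TAI (19.1%), so that the members' shares were near or below those of the background. The median log2 fold change of the 10 members was 0.23 for TAI against control beside -0.23 over all genes tested, 0.02 for TAI/IVIg against control beside -0.39, and -0.08 for TAI/IVIg against TAI beside -0.13.

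Those medians below 0 over all genes matter for how a fold change near 0 is read. With the median of every library set equal, the median over all genes tested moved to 0.03, 0.05 and 0.06 in these comparisons, and the share called higher became 13.9% and the share called lower 12.9% for TAI against control, and 20.7% and 15.3% for TAI/IVIg against control. On that scale 5 members were higher than control in TAI mice and 5 in TAI/IVIg mice, namely Bax, Bbc3, Pmaip1, Mcl1 and Bcl2l1, and none differed between TAI/IVIg and TAI mice. Values on this second scale are given below for each member whose call or direction it changed.

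**Figure D1:**
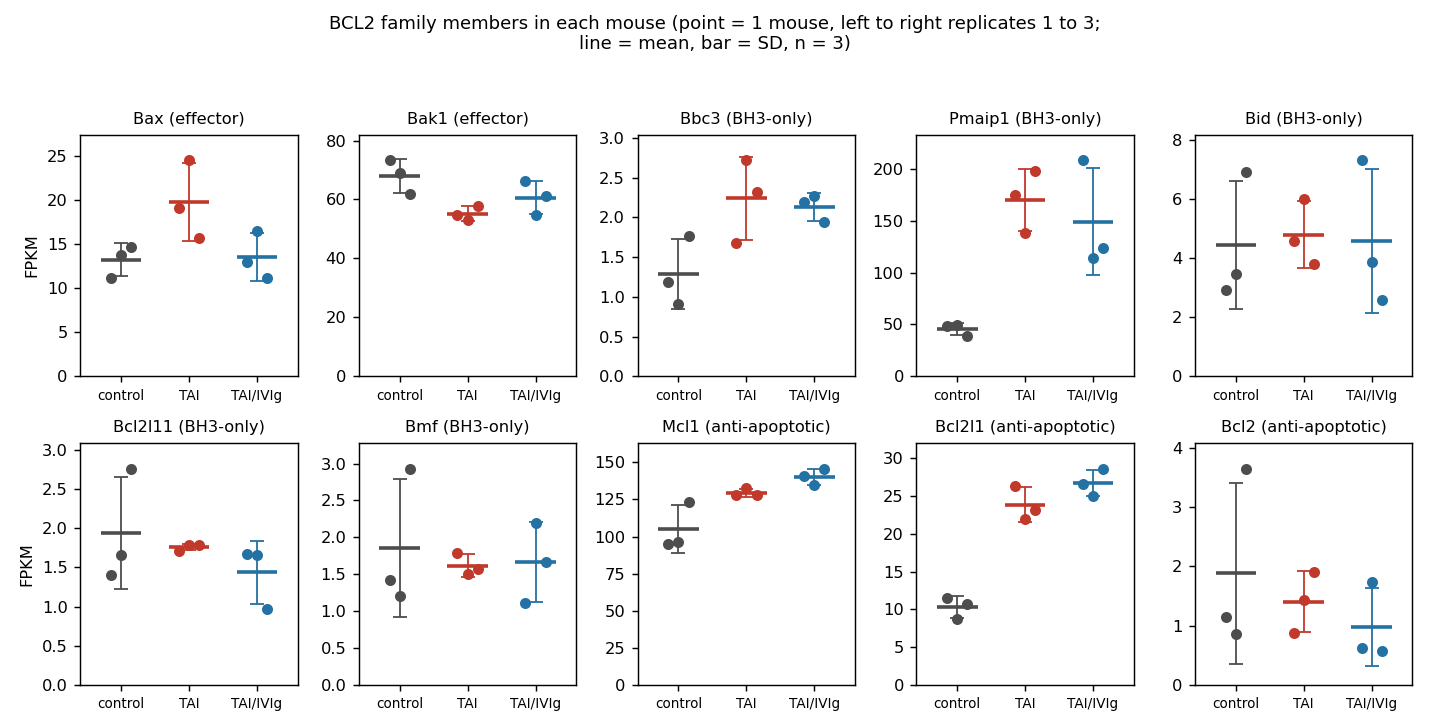
FPKM of the 10 BCL2 family members (vertical axes, each from 0) in control, TAI and TAI/IVIg mice. Points are single mice in replicate order, lines are means and bars are SD (n = 3). Pmaip1 and Bcl2l1 lie above control in all 6 irradiated mice, whereas Bid, Bcl2l11, Bmf and Bcl2 overlap between groups in the comparisons with control.

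Bax encodes a pore-forming effector and is a textbook p53 target. It lies on the minus strand of chromosome 7 at 45461697 to 45466898 (GRCm38, GENCODE M21). Of its 1576 exonic bases 192 are shared with Gm45808 on the same strand, a gene without deposited values, and reads there cannot be told apart by strand. The level of Bax was 11.2, 13.8 and 14.7 FPKM in the control mice, 19.1, 24.5 and 15.8 FPKM in the TAI mice and 13.0, 16.5 and 11.1 FPKM in the TAI/IVIg mice. All TAI mice were above all control mice, while the TAI/IVIg mice spanned the control range and overlapped the TAI mice. The log2 fold change for TAI against control was 0.53 (SE 0.20) with an adjusted p of 0.064, short of the threshold. Over all genes tested, same-numbered control and TAI mice deviated weakly alike from their group means (correlations of 0.27, 0.24 and 0.31). For Bax itself mouse 3 was the highest in control and the lowest in TAI. The labels do not say that the numbers mark pairs. With the replicate number as a block the same difference had an adjusted p of 0.042 over all 9 mice and 0.064 over the 6 control and TAI mice. It also passed without TAI mouse 3, at 0.68 (adjusted p = 0.044), and with library medians equal, at 0.85 (adjusted p = 0.0058). Over its 21 alternatives the adjusted p ran from 0.0058 to 0.20. For TAI/IVIg against control the log2 fold change was 0.02 (adjusted p = 0.93), or 0.58 (adjusted p = 0.018) with library medians equal. Between TAI/IVIg and TAI mice it was -0.51 (95% confidence interval -0.96 to -0.06), the lowest unadjusted p among the members at 0.030, with an adjusted p of 0.36. That was the 1 member under an unadjusted p of 0.05 in this comparison, where 12.9% of all genes tested were. Endothelial and stromal marker RNA was also lower in TAI/IVIg than in TAI mice, with summed levels of 4 endothelial markers of 15.6 to 22.8 FPKM in TAI and 7.54 to 14.2 FPKM in TAI/IVIg mice and all 6 stroma and muscle markers at an unadjusted p below 0.05, and their part in the Bax values was not tested.

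Bak1, the other effector, is on the minus strand of chromosome 17 at 27019810 to 27029009, and 437 of its 2407 exonic bases overlap a Ggnbp1 gene on the opposite strand, which did not exceed 0.297 FPKM. Bak1 was at 73.2, 69.0 and 61.9 FPKM in control, 54.8, 52.9 and 57.9 FPKM in TAI and 66.2, 54.7 and 61.1 FPKM in TAI/IVIg mice. It was the more abundant effector in every mouse, and the TAI mice were all below the control mice. The log2 fold change for TAI against control was -0.29 (SE 0.12, adjusted p = 0.092), and with library medians equal it turned to 0.04 (adjusted p = 0.89). For TAI/IVIg against control it was -0.16 (adjusted p = 0.29), again with the sign turned at equal medians, to 0.42 (adjusted p = 0.16). Thus the distance between the effectors narrowed in TAI mice in FPKM, from means of 68.0 ± 5.70 and 13.2 ± 1.85 in control to 55.2 ± 2.51 and 19.8 ± 4.41 in TAI (Bak1 and Bax, SD, n = 3), though neither gene alone passed the test.

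Pmaip1 encodes NOXA, a BH3-only protein that chiefly binds MCL1, and is located on the plus strand of chromosome 18 at 66458533 to 66465565. It had 48.7, 49.2 and 39.1 FPKM in the control mice, 175, 138 and 198 FPKM in the TAI mice and 208, 114 and 124 FPKM in the TAI/IVIg mice. The lowest irradiated mouse was thus well above the highest control mouse, and the spread was widest in the TAI/IVIg group, in which mouse 1 stood apart from the others. Mean Pmaip1 was 3.73-fold higher in TAI mice (log2 fold change 1.87, SE 0.24, adjusted p = 0.0012) and 3.26-fold higher in TAI/IVIg mice (1.64, SE 0.24, adjusted p = 0.0013). Between TAI/IVIg and TAI mice the difference was -0.23 with a 95% confidence interval of -0.77 to 0.31 (adjusted p = 0.67). Every alternative kept Pmaip1 past the threshold against control, 21 for TAI and 20 for TAI/IVIg mice.

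Bbc3 encodes PUMA, which can bind all the main anti-apoptotic members, and lies on the plus strand of chromosome 7 at 16308393 to 16318205. It was far less abundant than Pmaip1, with 34 to 94 reads per library behind its values. Its levels were 1.19, 0.91 and 1.77 FPKM in control, 1.68, 2.72 and 2.32 FPKM in TAI and 2.20, 2.27 and 1.94 FPKM in TAI/IVIg mice. The TAI/IVIg mice were all above the control mice, and TAI mouse 1 fell just under control mouse 3. The log2 fold change was 0.51 (SE 0.18, adjusted p = 0.058) in TAI and 0.47 (SE 0.18, adjusted p = 0.061) in TAI/IVIg mice against control. Without control mouse 3 these became 0.65 (adjusted p = 0.035) and 0.62 (adjusted p = 0.030), and with library medians equal 0.69 (adjusted p = 0.0098) and 0.84 (adjusted p = 0.0029). Over all alternatives the adjusted p ran from 0.0094 to 0.18 for TAI and from 0.0021 to 0.18 for TAI/IVIg mice.

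Bid, Bcl2l11 and Bmf, the remaining BH3-only members, did not pass the test in any comparison or under any alternative. BID links death receptor signalling to mitochondria after cleavage by caspase-8, and its gene is on the minus strand of chromosome 6 at 120891930 to 120916853. Bid was at 2.92, 3.47 and 6.93 FPKM in control, 4.59, 6.02 and 3.80 FPKM in TAI and 7.31, 3.86 and 2.59 FPKM in TAI/IVIg mice, so that each group held a mouse at 6.02 FPKM or more and a mouse at 4.59 FPKM or less. Of its 3550 exonic bases 628 are shared with Bcl2l13 on the opposite strand, and since strand use in the counting is not given in the sources used here, reads there cannot be told apart.

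Bcl2l11 encodes BIM, a potent BH3-only protein prominent in lymphocytes, on the plus strand of chromosome 2 at 128126038 to 128162547. It was at 1.40, 1.66 and 2.76 FPKM in control, 1.72, 1.79 and 1.78 FPKM in TAI and 1.68, 1.66 and 0.97 FPKM in TAI/IVIg mice. The 3 TAI mice were almost identical, and all TAI/IVIg mice were below them, while control mouse 3 was the highest of all. The log2 fold change for TAI/IVIg against TAI was -0.20 (adjusted p = 0.66). Bmf, whose product is linked to loss of cell attachment, lies on the minus strand of the same chromosome at 118528757 to 118549687 and was at 1.42, 1.21 and 2.92 FPKM in control, 1.79, 1.5 and 1.57 FPKM in TAI and 1.11, 2.20 and 1.67 FPKM in TAI/IVIg mice. Its groups overlapped in every comparison, with log2 fold changes of -0.08 and -0.07 for TAI and TAI/IVIg mice against control. With library medians equal, Bcl2l11 turned to 0.16 and 0.11 and Bmf to 0.14 and 0.30, none past the threshold.

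Mcl1 was the most abundant anti-apoptotic member in every mouse and ranked at the 97.1 percentile of all genes tested by its mean FPKM. MCL1 is a short-lived protein that many cells need to survive, and its gene is on the plus strand of chromosome 3 at 95658788 to 95663176. The control mice had 95.0, 96.3 and 124 FPKM, the TAI mice 128, 132 and 128 FPKM and the TAI/IVIg mice 141, 135 and 146 FPKM. Groups did not overlap in any of the 3 comparisons, with control lowest and TAI/IVIg highest, but the steps were small. For TAI/IVIg against control the log2 fold change was 0.43 (SE 0.13, adjusted p = 0.029). This call was lost without control mouse 1 (0.36, adjusted p = 0.078), control mouse 2 (0.37, adjusted p = 0.092), TAI mouse 1 (0.43, adjusted p = 0.051), TAI/IVIg mouse 1 (0.42, adjusted p = 0.052) or TAI/IVIg mouse 3 (0.40, adjusted p = 0.084), and when the 6 mice compared were fitted alone (0.43, adjusted p = 0.073). For TAI against control it was 0.31 (SE 0.13, adjusted p = 0.10), which passed without control mouse 3, at 0.43 (adjusted p = 0.041), and with library medians equal, at 0.65 (adjusted p = 0.025). The difference between TAI/IVIg and TAI mice was 0.12, with a 95% confidence interval of -0.19 to 0.42 (adjusted p = 0.70).

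Bcl2l1 encodes BCL-xL, an anti-apoptotic protein of the mitochondrial membrane that is widely expressed in epithelia, on the minus strand of chromosome 2 at 152780668 to 152831728. It showed the smallest adjusted p of the 10 members in both comparisons with control. Its level was 11.6, 8.75 and 10.7 FPKM in control, 26.4, 22.0 and 23.2 FPKM in TAI and 26.6, 25.1 and 28.6 FPKM in TAI/IVIg mice. Irradiated mice were thus about double the level of control mice with little spread. The mean was 2.31-fold higher in TAI mice (log2 fold change 1.14, SE 0.14, adjusted p = 0.00096) and 2.59-fold higher in TAI/IVIg mice (1.30, SE 0.14, adjusted p = 0.00037). Every alternative kept both calls, with log2 fold changes from 1.03 to 1.51 in TAI and from 1.19 to 1.86 in TAI/IVIg mice. Between TAI/IVIg and TAI mice it differed by 0.16 with a 95% confidence interval of -0.15 to 0.47 (adjusted p = 0.60). Cycling cell markers fell in the same comparisons (5 of 5 called lower in each, or 5 and 4 with library medians equal), while of 6 epithelial markers 1 was called higher and 1 lower in TAI mice and 3 higher and 1 lower in TAI/IVIg mice (1 and 3 higher and 0 lower with library medians equal), with summed levels of 5336 to 6958 FPKM in control, 6864 to 7624 FPKM in TAI and 6407 to 9083 FPKM in TAI/IVIg mice. The part of these cell types in the values of Bcl2l1, Mcl1 and Pmaip1 was not tested.

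Bcl2, the founding anti-apoptotic member, was near the lower end of expression, at the 14.6 percentile of genes tested. It spans 106538178 to 106714274 on the minus strand of chromosome 1. Its values were 1.14, 0.86 and 3.65 FPKM in control, 0.87, 1.44 and 1.90 FPKM in TAI and 0.62, 1.74 and 0.57 FPKM in TAI/IVIg mice. The highest mouse of each group was the mouse with the most B cell marker RNA, namely control mouse 3, TAI mouse 3 and TAI/IVIg mouse 2. Cd79a, which encodes a chain of the B cell receptor complex, was at 142, 29.9 and 31.4 FPKM in those mice and at 0.80 to 18.5 FPKM in the others. T cell markers were highest in control mouse 3 as well, where 6 of them summed to 45.9 FPKM against 5.84 to 13.6 FPKM in the other mice. No comparison of Bcl2 passed the test. The log2 fold change for TAI against control was -0.16 (adjusted p = 0.75) with all mice and 0.10 (adjusted p = 0.75) without the B cell richest mouse of each group, an alternative chosen after the data were seen. For TAI/IVIg against control it was -0.47 (SE 0.37, adjusted p = 0.31).

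**Figure D2:**
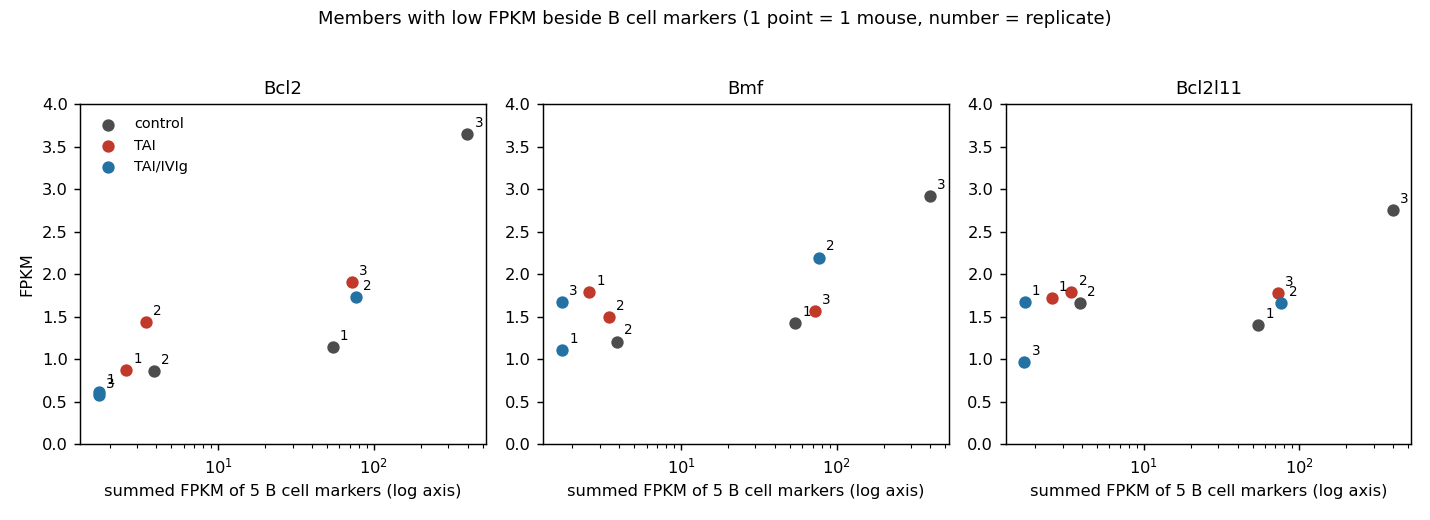
FPKM of Bcl2, Bmf and Bcl2l11 (vertical axes) against the summed FPKM of 5 B cell markers (horizontal log axes) in each mouse, coloured by group and numbered by replicate. Control mouse 3, with 399 FPKM of B cell markers, has the highest value of all 3 genes, and the mouse richest in these markers is the highest of its group for Bcl2.

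The other low members followed this order only in part. Control mouse 3 was the highest control mouse for Bcl2l11, Bmf, Bid and Bbc3. TAI mouse 3 was the highest of its group for none of these 4 genes and the lowest for Bid. TAI/IVIg mouse 2 was the highest of its group for Bmf and Bbc3, whereas TAI/IVIg mouse 1 was the highest for Bid and Bcl2l11. Leaving out the B cell richest mouse of each group left the counts of members called at 2 for TAI and 3 for TAI/IVIg against control. All 5 B cell markers were detected in every group, and none was called in any comparison. The part of B and T cells in the values of Bcl2 was not tested.

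Ordering the members by mean level showed where the composition changed. In control mice the order was Mcl1, Bak1, Pmaip1, Bax, Bcl2l1, Bid, Bcl2l11, Bcl2, Bmf and Bbc3, with no overlap among mice between neighbours from Mcl1 to Bax or from Bcl2l1 to Bcl2l11. In TAI mice Pmaip1 came first at 171 ± 30.1 FPKM, ahead of Mcl1 at 129 ± 2.69 and Bak1 at 55.2 ± 2.51 (SD, n = 3), and these did not overlap. In TAI/IVIg mice Pmaip1 at 149 ± 51.7 FPKM and Mcl1 at 140 ± 5.50 overlapped. Bcl2l1 was ahead of Bax in both irradiated groups, without overlap in TAI/IVIg mice (26.7 ± 1.77 and 13.5 ± 2.71) and with overlap in TAI mice (23.9 ± 2.27 and 19.8 ± 4.41). The last 4 places were taken by Bbc3, Bcl2l11, Bmf and Bcl2 in every group, and their neighbours overlapped throughout.

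**Figure D3:**
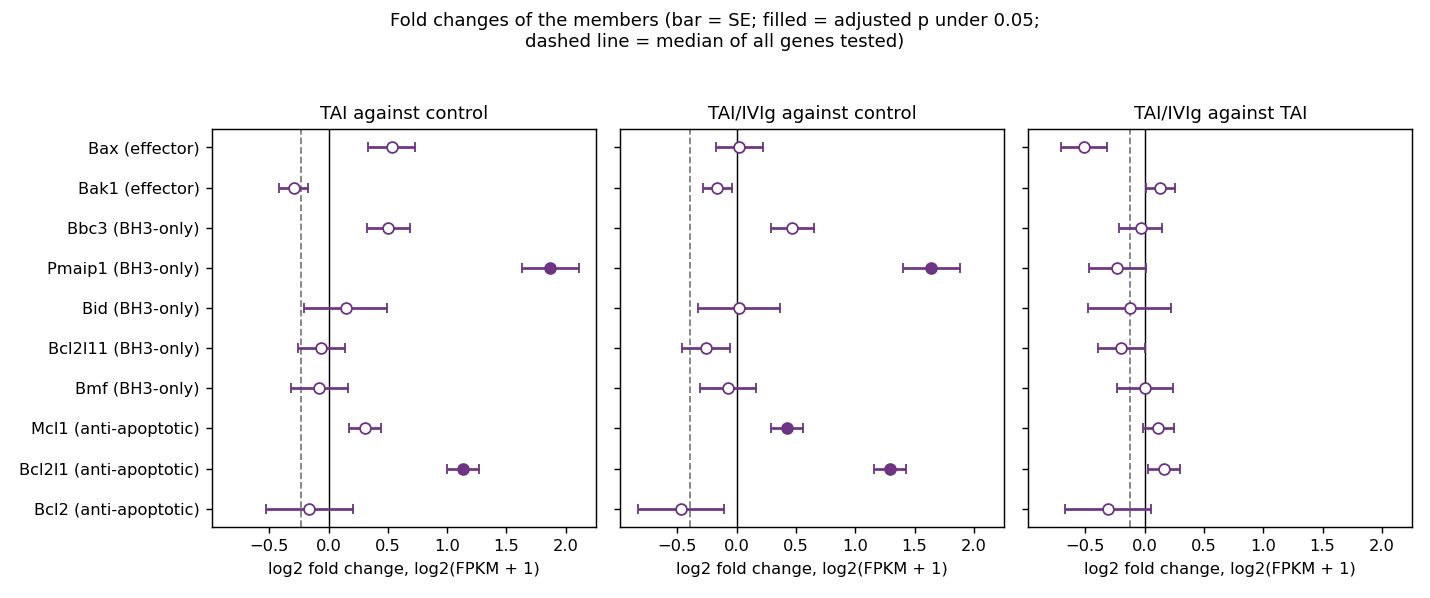
Log2 fold change of each member on the log2(FPKM + 1) scale (horizontal axis) in the 3 comparisons, with bars of 1 SE; filled points passed an adjusted p of 0.05 and the dashed line is the median over all genes tested. Pmaip1 and Bcl2l1 are filled in both comparisons with control, Mcl1 in TAI/IVIg against control only, and no point is filled between TAI/IVIg and TAI.

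The summed level of all 10 members was 248, 245 and 268 FPKM in control, 414, 384 and 434 FPKM in TAI and 468, 357 and 378 FPKM in TAI/IVIg mice. Pmaip1 supplied most of the rise, going from 14.6% to 20.1% of the sum in control to 36.1% to 45.6% in TAI and 32.1% to 44.5% in TAI/IVIg mice. Mcl1 held 38.4% to 46.1%, 29.4% to 34.5% and 30.1% to 38.5% in the same groups, although its own level was higher after irradiation. Bak1 went from 23.1% to 29.6% of the sum in control to 13.3% to 13.8% in TAI and 14.1% to 16.1% in TAI/IVIg mice. The ratio of the 7 pro-apoptotic to the 3 anti-apoptotic members, a description of RNA levels only, was 1.30, 1.32 and 0.94 in control, 1.67, 1.46 and 1.84 in TAI and 1.78, 1.21 and 1.17 in TAI/IVIg mice. TAI mice were all above control mice in this ratio, and TAI/IVIg mice overlapped both groups.

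That order rested on Pmaip1. Without it the ratio was 0.85, 0.85 and 0.66 in control, 0.54, 0.57 and 0.54 in TAI and 0.54, 0.50 and 0.45 in TAI/IVIg mice, so that all irradiated mice were below all control mice. The geometric means of the 2 sides, in which every member weighs the same, gave 0.51 to 0.67 in control, 0.50 to 0.62 in TAI and 0.47 to 0.69 in TAI/IVIg mice, which overlapped. Pairs named for their known binding moved in different directions. Pmaip1 over Mcl1 was 0.51, 0.51 and 0.32 in control, 1.37, 1.05 and 1.55 in TAI and 1.48, 0.85 and 0.85 in TAI/IVIg mice. Bax over Bcl2l1 was 0.97, 1.58 and 1.37 in control, 0.73, 1.11 and 0.68 in TAI and 0.49, 0.66 and 0.39 in TAI/IVIg mice. Bax over Bcl2, a ratio often quoted, ran from 4.04 to 16.1 in control mice alone and was lowest in control mouse 3.

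**Figure D4:**
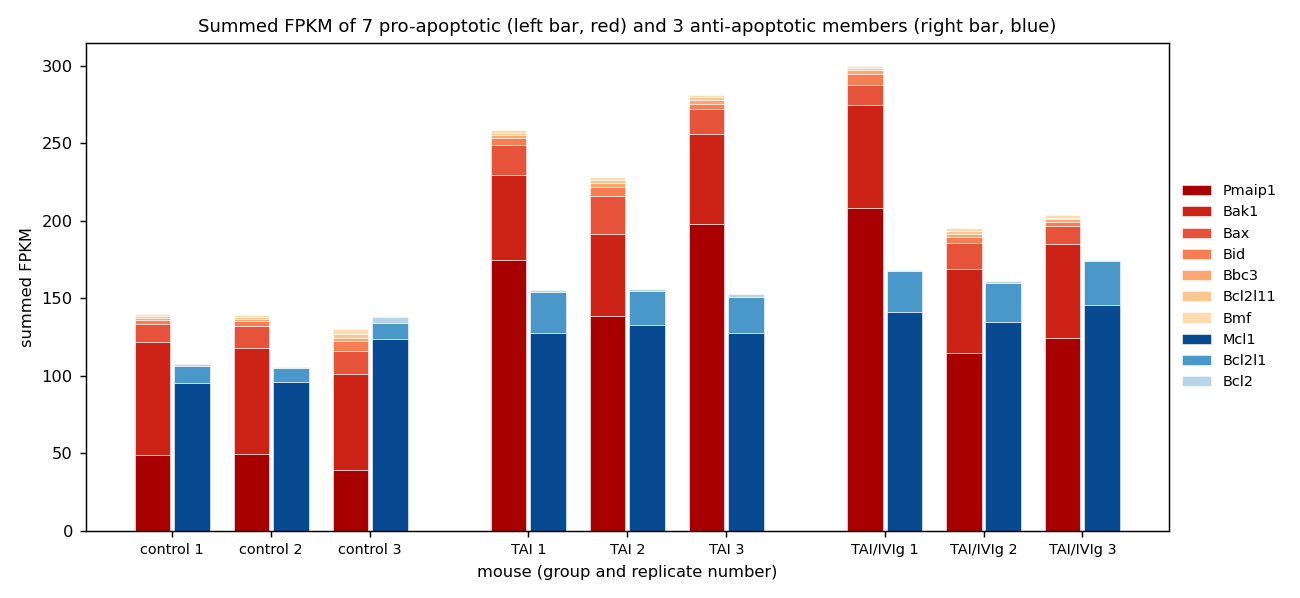
Summed FPKM (vertical axis, from 0) of the 7 pro-apoptotic members (red, left bar) and the 3 anti-apoptotic members (blue, right bar) in each mouse, stacked by gene. Pmaip1 makes up most of the difference between control and irradiated mice, and Mcl1 most of every blue bar.

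Sequences upstream of the start sites are shown for 3 members, Bax as a textbook p53 target, though not the only one of the set, and Bcl2l1 and Mcl1 because they were the anti-apoptotic members called higher. Each is the 250 bases before a RefSeq start on GRCm38.p6, read 5′ to 3′ on the gene's strand, with matches to the p53 half-site in capitals. The windows are chr7:45466899-45467148 (minus strand, inside an intron of Gm45808 on the same strand), chr2:152831729-152831978 (minus strand, the most upstream of 3 starts) and chr3:95658471-95658720 (plus strand).
Bax: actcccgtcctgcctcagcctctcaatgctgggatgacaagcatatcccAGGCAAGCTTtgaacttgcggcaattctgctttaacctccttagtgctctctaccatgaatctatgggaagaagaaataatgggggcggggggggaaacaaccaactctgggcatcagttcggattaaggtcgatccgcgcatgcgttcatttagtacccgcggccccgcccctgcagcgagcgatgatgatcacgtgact
Bcl2l1: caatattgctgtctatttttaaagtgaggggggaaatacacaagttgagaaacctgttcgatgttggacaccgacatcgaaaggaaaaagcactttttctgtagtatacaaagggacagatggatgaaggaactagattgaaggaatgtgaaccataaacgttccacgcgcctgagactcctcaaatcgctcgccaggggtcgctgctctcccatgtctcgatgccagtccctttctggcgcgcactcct
Mcl1: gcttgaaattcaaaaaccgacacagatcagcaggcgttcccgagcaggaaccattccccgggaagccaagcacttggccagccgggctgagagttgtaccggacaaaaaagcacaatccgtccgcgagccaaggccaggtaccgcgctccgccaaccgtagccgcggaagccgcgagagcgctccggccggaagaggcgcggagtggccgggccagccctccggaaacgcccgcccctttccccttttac
The half-site pattern is its own reverse complement, so that 1 search covers both strands, and the Bax window holds 1 match, beginning at -201 from the start. Both strands were also searched for the STAT pattern TTCNNNGAA, which no window of the 9 members searched contained, and for the FOXO pattern GTAAACA (Pmaip1 was not searched). The windows of Bcl2l1 and Mcl1 contained no match to any of the 3 patterns. Among the other members a half-site match lay at -213 in a Bmf window and a FOXO match at -167 in a Bbc3 window and at -227 in a Bcl2l11 window. No Bbc3 window held a half-site match. Of 32851 such windows over all genes 7.13% held the half-site, 7.02% the STAT pattern and 3.17% the FOXO pattern. A match describes letters, and the data hold no measurement of binding.

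Among 15 other BCL2 family genes, 12 were tested, and Bok stood out. BOK resembles BAX and BAK in structure, and its gene was at 1.81, 3.11 and 3.33 FPKM in control, 15.8, 17.0 and 17.5 FPKM in TAI and 22.2, 13.9 and 15.7 FPKM in TAI/IVIg mice. Its mean was 6.09-fold higher in TAI mice (log2 fold change 2.27, SE 0.21, adjusted p = 0.00036) and 6.28-fold higher in TAI/IVIg mice (2.28, SE 0.21, adjusted p = 0.00022), past the threshold in every alternative. It was the 1 gene of the list called higher in TAI mice, and 3 were lower, Bcl2l2 (which encodes the anti-apoptotic BCL-W, log2 fold change -0.41, or -0.10 and not called with library medians equal), Bcl2l12 (-0.69) and Bcl2l13 (-0.72). The call of Bcl2l12 held in 11 of 20 alternatives. Among others it was lost without control mouse 2 (adjusted p = 0.067), control mouse 3 (adjusted p = 0.072), TAI mouse 2 (adjusted p = 0.073) or TAI mouse 3 (adjusted p = 0.070). That of Bcl2l13 held in 18 of 20 and was lost, among others, without control mouse 2 (adjusted p = 0.052). The list's 4 calls became 1 without control mouse 2 and 2 without control mouse 3, TAI mouse 2 or TAI mouse 3. Of these genes 2 rose and 5 fell in TAI/IVIg mice against control, among them Bcl2a1d, an anti-apoptotic gene of leukocytes (log2 fold change -1.57, SE 0.35, adjusted p = 0.0066), whose near-identical copies Bcl2a1a and Bcl2a1b make its counts uncertain. The list's median was -0.40 in TAI and -0.47 in TAI/IVIg mice against control, or -0.12 and 0.09 with library medians equal, when 2 genes were higher and 1 lower in TAI mice and 2 higher and 3 lower in TAI/IVIg mice. Beside these counts, 8.81% of all genes tested were called higher and 26.1% lower in TAI mice, and 9.06% and 37.4% in TAI/IVIg mice. With library medians equal these shares were 13.9% and 12.9% in TAI and 20.7% and 15.3% in TAI/IVIg mice.

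Downstream of the mitochondrion, 1 of 12 tested execution genes was higher and 5 were lower in TAI mice, and the counts were 1 and 7 in TAI/IVIg mice, with list medians of -0.83 and -0.61. Over all genes tested 8.81% were called higher and 26.1% lower in TAI mice, and 9.06% and 37.4% in TAI/IVIg mice. At equal library medians these shares were 13.9% and 12.9% in TAI and 20.7% and 15.3% in TAI/IVIg mice. Apaf1, the scaffold of the apoptosome, was the gene that rose, from a mean of 11.9 to 24.0 FPKM in both irradiated groups (log2 fold change 0.97 in TAI, adjusted p = 0.0045, and 0.96 in TAI/IVIg, adjusted p = 0.0029). Endog, a mitochondrial nuclease, fell by 1.18 and 1.20 on the log2 scale in TAI and TAI/IVIg mice (adjusted p = 0.0030 and 0.0019). Both genes kept their calls in every alternative. With library medians equal 1 execution gene was higher and 3 were lower in TAI mice, 3 were higher and 3 lower in TAI/IVIg mice, and the medians were -0.52 and -0.09. Of the 8 genes listed as caspase inhibitors 1 was higher and 1 lower in TAI mice, and the counts were 2 and 1 in TAI/IVIg mice. All of these calls were Naip2, Naip5 or Naip6, near-identical genes where the split of reads is uncertain. Xiap and the Birc genes were not called, so the counts do not show a change of caspase inhibition. With library medians equal 3 genes of this list were higher in TAI and 4 in TAI/IVIg mice, and 0 were lower in either.

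In the death receptor arm, which reaches the BCL2 family through Bid, 3 of 10 tested genes were higher and 1 lower in both comparisons with control. The shares of all genes tested were 8.81% higher and 26.1% lower in TAI mice, and 9.06% and 37.4% in TAI/IVIg mice. At equal library medians they were 13.9% and 12.9% in TAI and 20.7% and 15.3% in TAI/IVIg mice. Of the called genes Tnfrsf1a rose most, by 0.82 in TAI (adjusted p = 0.012) and 0.83 in TAI/IVIg mice (adjusted p = 0.0081). Fadd was the gene called lower, at -0.63 (adjusted p = 0.021) and -0.65 (adjusted p = 0.013). Fas, a p53-responsive death receptor, rose by 0.70 (SE 0.15) in each, with adjusted p of 0.0076 in TAI and 0.0050 in TAI/IVIg mice. With library medians equal the counts were 6 higher in TAI and 7 higher in TAI/IVIg mice, with 0 lower in either. The list's median was 0.49 in TAI and 0.41 in TAI/IVIg mice, or 0.76 and 0.96 with library medians equal, and in TAI mice its 4 calls became 1 without TAI mouse 1. Among 5 tested transcription factors of BH3-only genes 1 was called in each comparison, Ddit3 (CHOP, a stress-induced factor), which was lower by -1.31 in TAI (adjusted p = 0.0030) and -1.29 in TAI/IVIg mice (adjusted p = 0.0021). With library medians equal the latter was -0.73 (adjusted p = 0.051), and of these factors 1 was higher and 1 lower in TAI mice and 2 higher and 0 lower in TAI/IVIg mice.

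In the p53 pathway list 7 of 11 genes were higher and 0 lower in TAI mice (median 0.71), while in TAI/IVIg mice 4 rose and 1 fell (median 0.31). Among all genes tested 8.81% were called higher and 26.1% lower in TAI mice, and 9.06% and 37.4% in TAI/IVIg mice. At equal library medians these shares were 13.9% and 12.9% in TAI and 20.7% and 15.3% in TAI/IVIg mice. With library medians equal the groups were closer, with 8 higher in TAI (median 0.92) and 7 higher in TAI/IVIg mice (median 0.85) and 0 lower in either. Phlda3, a p53 target, was at 2.21, 2.47 and 2.37 FPKM in control, 15.7, 21.0 and 14.4 FPKM in TAI and 7.78, 11.6 and 6.00 FPKM in TAI/IVIg mice, without overlap between any groups. It was higher by 2.41 in TAI mice (SE 0.22, adjusted p = 0.00035) and by 1.45 in TAI/IVIg mice (SE 0.22, adjusted p = 0.0014), and the difference between the irradiated groups was -0.96 (adjusted p = 0.35). Bax ranked the mice in the same order as Phlda3 within each irradiated group, with TAI mouse 2 and TAI/IVIg mouse 2 highest for both genes, whereas Pmaip1 was highest in TAI mouse 3 and TAI/IVIg mouse 1. The 7 calls in TAI mice became 4 without TAI mouse 1 or TAI mouse 2, and the 5 calls in TAI/IVIg mice became 3 without control mouse 1, TAI/IVIg mouse 1 or TAI/IVIg mouse 2. Eda2r, a p53-induced receptor, was nearly silent in control (mean 0.12 FPKM). It reached 1 FPKM only in irradiated mice and passed the filter through them. Its mean was 1.99 FPKM in TAI and 0.84 FPKM in TAI/IVIg mice, with log2 fold changes of 1.39 and 0.70. Both of its calls are in the counts above but were not independent of the filter. Ccng1, which encodes cyclin G1, rose by 1.34 in TAI (adjusted p = 0.0021) and by 1.02 in TAI/IVIg mice (adjusted p = 0.0038). Trp53 itself, the gene of p53, was lower by -1.04 in TAI/IVIg mice (SE 0.26, adjusted p = 0.011), or -0.53 (adjusted p = 0.061) with library medians equal. No gene of these lists was called between TAI/IVIg and TAI mice. At an unadjusted p below 0.05, 5 of the 11 p53 pathway genes differed there, beside 12.9% of all genes tested. Without overlap of the groups 5 were lower and 1 higher in TAI/IVIg mice, beside 19.1% of all genes tested in either direction. The median of this list was -0.45 in that comparison, or -0.24 with library medians equal.

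**Figure D5:**
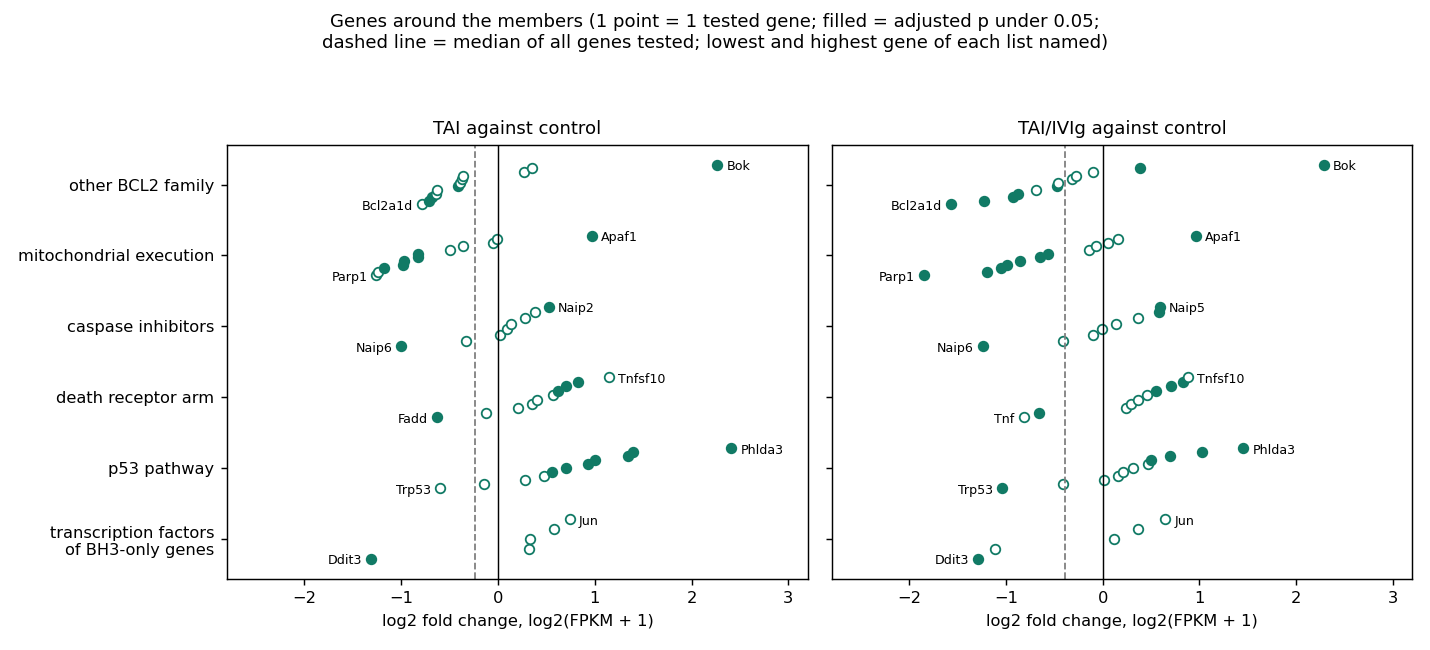
Log2 fold change on the log2(FPKM + 1) scale (horizontal axis) of every tested gene in 6 lists around the members, for TAI and TAI/IVIg against control; filled points passed an adjusted p of 0.05 and the dashed line is the median over all genes tested. Bok, Apaf1 and Phlda3 lie far to the right in both panels, while most execution genes lie to the left of 0.

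The genes whose pattern over the 9 mice was most like that of a member, by Pearson correlation of log2(FPKM + 1) over all genes tested, are given as a description, since mice of 1 group share a treatment. For Pmaip1 they were 1700030A11Rik (r = 0.995) and App (0.994), and for Bcl2l1 Fbxo4 (0.994) and Apoa4 (0.993). For Bax they were Gdpd5 (0.981) and Inf2 (0.977), and for Mcl1 Rnf167 (0.972) and Abhd16a (0.963). Bcl2 was followed most closely by Slc8b1 (0.986) and Ptp4a3 (0.983), and Bcl2l11 by Timd4 (0.981) and Pip5k1c (0.975). Bbc3 was most like Lats2 (0.963) and Kmt2c (0.946), Bid like Ppp2r2d (0.951) and Gm12216 (0.943), Bak1 like Ppp1r15b (0.941) and Gm16481 (0.940), and Bmf like Brap (0.931) and Ighv1-11 (0.929). The last is a segment of the immunoglobulin heavy chain and thus a B cell gene.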

How the data were processed

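RNA of 9 jejunal samples was sequenced by the authors, whose processing notes name FastQC, Trimmomatic, STAR, featureCounts and DESeq2 without versions and the builds mm10 and GRCm38. The deposited values used here are FPKM per gene, computed by the authors for 31685 genes. FPKM multiplied by the GENCODE M21 exonic length gave whole reads (within 0.01) for 30616 of 31146 genes with a symbol (98.3%), and a length search gave them for all 31685, so that depth was known.

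Genes with at least 1 FPKM in at least 3 mice (13056) were fitted as log2(FPKM + 1) with limma 3.58.1 (R 4.3.3), trended, over all 9 mice, with Benjamini-Hochberg adjustment over all genes tested. Fold changes on this scale understate the change of low genes. The fit was tested on data simulated for TAI against control, where the same filter kept 13394 genes, and 199 of 200 genes changed by 2 on the log2 scale and 12 unchanged genes were called. Those changes were larger than the differences of most members, and 1 dispersion was used for all genes. The simulation therefore cannot show how smaller differences fare. Whether same-numbered mice pair was checked from the correlation of their deviations from the group means, which was 0.27, 0.24 and 0.31 for control and TAI mice and below 0.1 for at least 1 number in the comparisons with TAI/IVIg mice. The highest such correlation, 0.41, was between control mouse 3 and TAI/IVIg mouse 2, whose numbers differ, so that these values cannot settle whether the mice were paired. P-values set each group difference against the spread among these mice, pooled over the 3 groups and drawn toward a trend over all genes tested. Alternatives were other scalings, pseudocounts and filters, limma voom on recovered reads, a replicate block and leaving out each mouse. Members and lists were chosen with earlier results of these data known. Named genes were all members, genes of the lists, the 2 genes most like each member, and the first marker of each list used. Those of the lists were taken from the up to 2 called genes per direction with the largest fold change, and not all of these are named. Bcl2l2 and Bcl2a1b were added after values were seen. Levels, ratios and the resemblance between genes were described without a test. Confidence intervals are 95% limits from limma. Figures were drawn with matplotlib. 1 gene of the execution list is not reported here.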

Additional observations from a re-analysis of the deposited data

How the results depend on the processing

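The calls of Pmaip1 and Bcl2l1 against control kept their direction and passed the threshold under all 21 alternatives for TAI and all 20 for TAI/IVIg mice. The number of members called for TAI against control was 2, and 5 with library medians set equal, with quantile normalization or with voom on recovered reads and median-ratio library sizes, and it ran from 2 to 4 when 1 mouse was left out, with 4 without control mouse 3. For TAI/IVIg against control it was 3, and 5 with library medians set equal, and it ran from 2 to 4 when 1 mouse was left out. It stayed at 0 between TAI/IVIg and TAI mice under every alternative. With the replicate block over all 9 mice the counts were 3, 3 and 0, the added call being Bax in TAI mice, and with the replicate block in the 6 control and TAI mice alone the first was 2 with Bax at an adjusted p of 0.064; no other call of a member changed with the block.

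Signs changed only for differences of members that were short of the threshold. With library medians set equal the log2 fold change for TAI against control was 0.043 for Bak1, 0.16 for Bcl2l11, 0.14 for Bmf and 0.048 for Bcl2, for TAI/IVIg against control 0.42 for Bak1, 0.11 for Bcl2l11 and 0.30 for Bmf, and for TAI/IVIg against TAI 0.15 for Bbc3, 0.022 for Pmaip1 and 0.082 for Bid. With quantile normalization it was 0.12 for Bcl2l11 and 0.10 for Bmf, then 0.071 for Bak1, 0.19 for Bcl2l11 and 0.36 for Bmf, and then 0.23 for Bbc3, 0.087 for Bid and 0.07 for Bcl2l11 in these comparisons. With voom on recovered reads and median-ratio library sizes it was 0.21 for Bcl2l11, 0.20 for Bmf and 0.091 for Bcl2, then 0.31 for Bak1, 0.061 for Bcl2l11 and 0.37 for Bmf, and then 0.13 for Bbc3 and 0.018 for Bid. Without the B cell richest mouse of each group, chosen after the data were seen, it was 0.12 for Bcl2l11, 0.19 for Bmf and 0.10 for Bcl2, then -0.043 for Bax and 0.038 for Bmf, and then 0.048 for Pmaip1 and -0.15 for Bmf. Bmf for TAI/IVIg against TAI was also -0.0098 with a pseudocount of 0.1 and -0.019 with voom on recovered reads. Leaving out 1 mouse gave, for TAI against control, -0.056 to 0.45 for Bid, -0.20 to 0.13 for Bcl2l11, -0.24 to 0.18 for Bmf and -0.42 to 0.25 for Bcl2, for TAI/IVIg against control -0.12 to 0.14 for Bax, -0.31 to 0.33 for Bid and -0.23 to 0.18 for Bmf, and for TAI/IVIg against TAI -0.17 to 0.071 for Bbc3, -0.46 to 0.15 for Bid and -0.14 to 0.16 for Bmf.

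The mean ratio of pro- to anti-apoptotic FPKM was 1.19, 1.66 and 1.39 in the control, TAI and TAI/IVIg groups. It became 0.58, 0.57 and 0.56 as a ratio of geometric means, 11.5, 10.1 and 8.43 without Mcl1 and 0.79, 0.55 and 0.50 without Pmaip1, by construction of the ratio. Causes of the other shifts were not tested. With 3 mice a group the spread among mice limits the low members, Bcl2 with 88 to 578 reads and Bbc3 with 34 to 94 reads per library among them.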
